A study of Mus musculus with 21 samples.

Results

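The comparison described here set CEBPB(V285A), a mutant of the transcription factor CEBPB with alanine in place of a valine in the DNA-binding region, on DNA made with 5-methylcytosine (5mC) against the same protein on DNA made with unmodified cytosine (C). It rests on 4 of the 21 protein binding microarrays of the series, 2 on 5mC and 2 on C, and on all 65535 sequences of 8 bases (8-mers) scored on each. On such an array, many short DNA probes are made double-stranded in place, a tagged protein is bound to them, and the fluorescence of each spot reports how much protein it holds. The protein was the mouse DNA-binding domain alone, carrying an N-terminal GST tag, expressed in vitro without cells. The second strand of each probe was synthesised on the array with 5mC or with C, so that on the 5mC arrays the modified base lay on that strand and the opposite strand kept C. Both groups shared the mutant, the array design and the Cy5 readout. The mutant CREB1(A297V) on 5mC (2 arrays) and on C (2 arrays) is used for comparison below. So is wild-type CREB1 on 5mC (1 array) and on C (2 arrays). The series also holds arrays on DNA made with 5-hydroxymethylcytosine (5hmC), 2 of them with CEBPB(V285A). The 5hmC arrays are not part of the comparison but entered the fit behind the tests.

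CEBPB and CREB1 are basic leucine zipper (bZIP) factors. They bind as dimers that lie across the DNA like a pair of tongs, each subunit reading a half-site of 4 base pairs. C/EBP proteins are known for the half-site GCAA, CREB1 for GTCA, the half-site of the cAMP response element (CRE), and the PAR bZIP proteins for GTAA. Cytosine carrying a methyl group resembles thymine on the side that such a protein reads in the major groove, since thymine bears a methyl group at the same place of its ring. Methylated CpG is the common form of modified cytosine in mammalian DNA, and it has the modification on both strands, unlike the DNA on these arrays.

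Every 8-mer is written from 5′ to 3′ on the strand that was synthesised on the array, so each C in a name was 5mC on the 5mC arrays. The last 4 bases are the half-site on this strand, called the modified strand here, and the first 4 are the reverse complement of the half-site on the other strand. This reading assumes that the printed sequence was the template of the synthesis, which was not tested, although the deposited scores did match this spelling of the probes. The sequences below are shown because the results turn on them. They join the half-sites in every order, and the capitals mark the half-site that the modified strand carries with the base before it.
C/EBP with C/EBP: ttgCGCAA
C/EBP with CRE: tgaCGCAA
C/EBP with PAR: ttaCGCAA
PAR with C/EBP: ttgCGTAA
PAR with CRE: tgaCGTAA
PAR with PAR: ttaCGTAA
CRE with C/EBP: ttgCGTCA
CRE with CRE: tgaCGTCA
CRE with PAR: ttaCGTCA

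The score of an 8-mer was a Z-score made by the authors, which measured preference within an array and not affinity. The Z-scores of the arrays of a group correlated across 8-mers with Pearson r of 0.968 (5mC) and 0.958 (C), against 0.297 to 0.374 between a 5mC and a C array. In ranks the gap was smaller, with Spearman rho of 0.791 (5mC) and 0.899 (C) within a group, against 0.661 to 0.696 between groups. The median spot intensity was 981 and 922 on the 5mC arrays against 735 and 738 on the C arrays, and the median local background was 487 and 385 on 5mC against 227 and 301 on C. The background was as bright as the spot at 3539 and 1901 of the 40330 spots on the 5mC arrays, and at 19 and 79 on the C arrays. The highest Z-score of an array was 255.8 and 251.1 on 5mC and 250.8 and 232.1 on C, at different 8-mers on the 2 forms. The array numbers of the deposited files differed between the groups, so array and cytosine form cannot be told apart. Nothing in the labels said that the arrays of a group had separate protein preparations, and p-values measured only the spread between arrays. With 2 arrays against 2, an exact permutation test cannot give a two-sided p below 0.3333, so tests came from a limma fit across all 8-mers and all 21 arrays, and an 8-mer was called at a Benjamini-Hochberg adjusted p under 0.05.

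With 5mC, many 8-mers that carried the C/EBP half-site on the modified strand had higher Z-scores and many that carried the CRE half-site had lower ones. Of 1279 8-mers with GCAA, 856 were called higher on 5mC and 1 lower, and of 2556 with GTCA or TGAC, 11 were called higher and 873 lower. Of 65535 8-mers tested, 1972 (3.01%) were higher and 2287 (3.49%) lower on 5mC than on C, together 6.50%. At all 4259 of these the 2 arrays of one group lay wholly above those of the other, as they did at 35922 of all 8-mers. The median difference over all 8-mers was 0.0027. Without replicate 1 of the C group the calls numbered 2557 (1240 higher and 1317 lower), without replicate 2 of the C group 1252 were higher, and without replicate 2 of the 5mC group 1479 were lower.

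**Figure D1:**
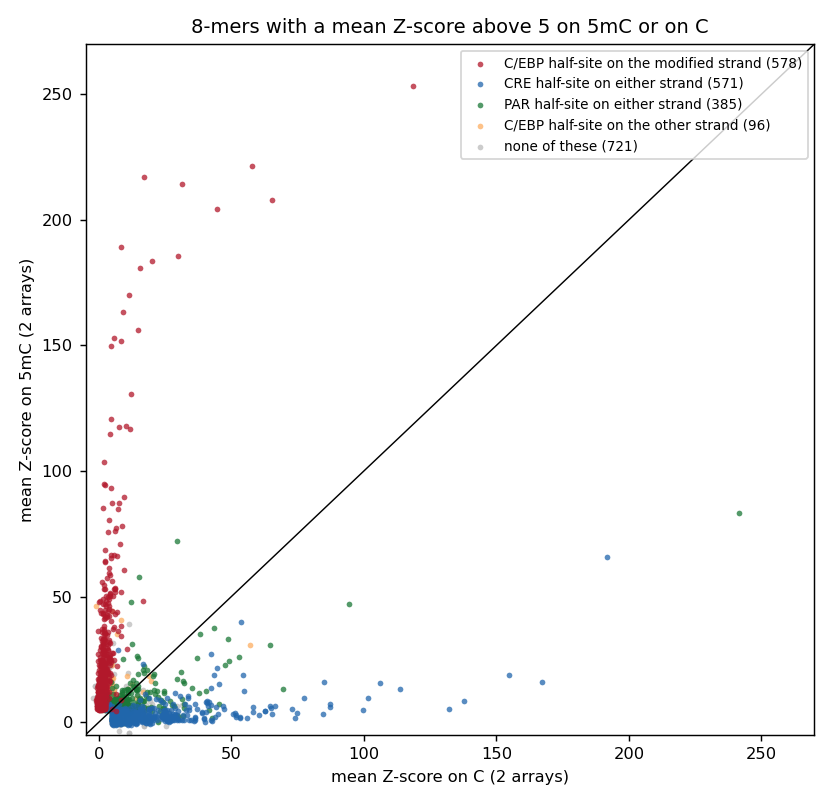
Mean Z-score of CEBPB(V285A) on 5mC (vertical axis, mean of 2 arrays) against the mean on C (horizontal axis, mean of 2 arrays) for the 2351 8-mers with either mean above 5. Each point is an 8-mer, the colour gives its half-site, the count of points stands in the legend and the line marks equal values. Of the 578 8-mers with the C/EBP half-site on the modified strand 577 lie above the line, and of the 571 with the CRE half-site and no GCAA 561 lie below it.

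The sequences at the top of the order were largely different on the 2 forms. Among the 100 8-mers with the highest mean, 92 held GCAA on 5mC against 4 on C. GTCA or its reverse complement TGAC stood in 2 of the 100 on 5mC and in 77 on C, and GTAA or TTAC, in 8-mers with neither of the other half-sites on either strand, in 5 and 18. Only 7 8-mers were in both sets of 100, namely TTACGCAA, TGACGCAA, TTGCGCAA, TGATGCAA, TTACGTAA, TGACGTAA and TACGTAAT. The first 4 of these had higher values on 5mC and the other 3 lower ones. Of the 8-mers called higher by at least 5 Z, 538 of 714 held GCAA, and of the 799 called lower by at least 5 Z, 0 held it.

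The C/EBP half-site came first in the order of sites on 5mC. TTACGCAA, which pairs a C/EBP half-site with a PAR half-site, had Z-scores of 255.8 and 251.1 on 5mC against 127.6 and 109.2 on C. It ranked first of all 8-mers on 5mC and 7 on C (difference 135 ± 20.7, SE, limma adjusted p 0.00061). TGACGCAA, the C/EBP and CRE hybrid, had 237.5 and 205.1 on 5mC against 60.8 and 54.6 on C. The C/EBP palindrome TTGCGCAA, the site that wild-type C/EBP proteins are known for, had 200.2 and 215.3 on 5mC against 65.7 and 65.3 on C. At all 3 of these sites both 5mC arrays lay above both C arrays, and the lowest 5mC value exceeded the highest C value by more than the arrays of a group differed among themselves. TGACGCAA was called under every alternative tried. On the asinh of the Z-scores TTACGCAA (limma adjusted p 0.106) and TTGCGCAA (0.105) were not called. Nor was TTACGCAA called with the 6 CEBPB(V285A) arrays alone (limma adjusted p 0.105), of which 2 were on 5hmC.

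Sites with a CRE half-site on the modified strand showed the opposite. The CRE palindrome TGACGTCA, the canonical CREB1 site, had 16.1 and 21.6 on 5mC against 174.4 and 135.0 on C, and ranked 260 on 5mC and 4 on C. TTACGTCA had 16.9 and 14.9 on 5mC against 184.8 and 149.5 on C. TTGCGTCA had 16.8 and 15.2 on 5mC against 93.1 and 77.2 on C. All 3 were called lower (limma adjusted p 3.7e-06 for TGACGTCA, 1.1e-07 for TTACGTCA and 7.9e-08 for TTGCGTCA), and on 5mC they lay close together whatever the half-site on the other strand was. These calls drew on the spread of all 21 arrays: none of the 3 was made with the 6 CEBPB(V285A) arrays or with the 4 arrays alone, where the limma adjusted p was 0.212 for TGACGTCA, 0.135 for TTACGTCA and 0.502 for TTGCGTCA. On the asinh of the Z-scores TGACGTCA (0.201) and TTGCGTCA (0.0732) were not called, and after normexp TTACGTCA alone was (0.0374; 0.0936 for TGACGTCA and 0.128 for TTGCGTCA).

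The PAR half-site on the modified strand, which holds no C of its own, gave a mixed picture. The PAR palindrome TTACGTAA had 89.3 and 77.2 on 5mC against 250.8 and 232.1 on C, and ranked 32 on 5mC and first on C (difference -158 ± 8.09, SE, limma adjusted p 1.0e-08). The direction turned after normexp background correction, where the difference in recomputed Z-score was 0.931 (limma adjusted p 0.969). That alternative recomputed the Z-scores from log2 intensities. It thus changed the scale as well as the background, and its differences cannot be compared in size with those of the deposited Z-scores. TGACGTAA had 61.9 and 69.5 on 5mC against 211.0 and 172.8 on C (adjusted p 0.012, limma). Its call was lost without replicate 1 of the C group (difference -107, limma adjusted p 0.152), without replicate 1 of the 5mC group (-122, 0.0787) and without replicate 2 of the 5mC group (-130, 0.0628), and after normexp its difference was -0.00549. TTGCGTAA had 33.5 and 33.2 on 5mC against 49.7 and 47.4 on C and was not called (difference -15.3 ± 8.62, SE, limma adjusted p 0.474), although its arrays did not overlap.

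**Figure D2:**
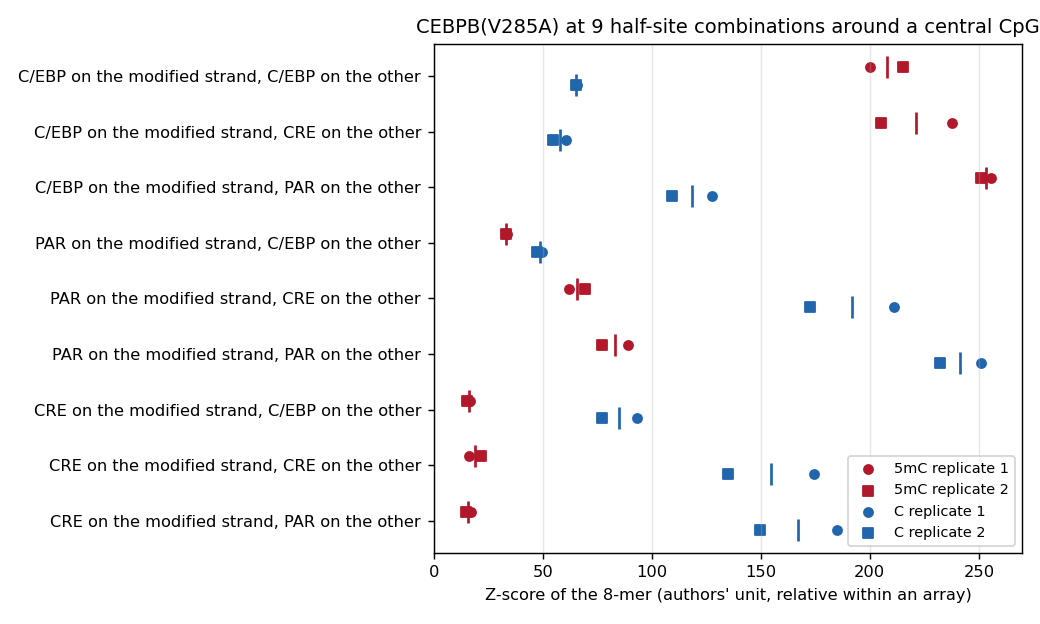
Z-scores of CEBPB(V285A) (horizontal axis) at the 9 combinations of half-sites around a central CpG (rows), named by the half-site on the modified and on the other strand, on 5mC (upper points of a row) and on C (lower points). Points are single arrays and ticks are the means of 2. In the 3 rows with the C/EBP half-site on the modified strand the 5mC arrays lie between 200.2 and 255.8, and in the 3 rows with the CRE half-site they lie between 14.9 and 21.6.

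Of the 27 fixed 8-mers, which are these 9 sites, their versions with T at position 4 and the reverse complements of those, 9 were called higher, 13 lower and 5 in neither direction. Of all 8-mers 3.01% were called higher and 3.49% lower, and the 27 were chosen with earlier results of these data known.

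Because the modification lay on one strand, the same duplex was present with the one strand modified and, on other probes, with the other, and the response depended on which strand that was. TGACGCAA and TTGCGTCA are the strands of a single duplex with a C/EBP and a CRE half-site. With the strand bearing GCAA modified, the Z-score was 221 ± 22.9 on 5mC against 57.7 ± 4.35 on C (SD, n = 2 arrays each). With the strand bearing GTCA modified, it was 16.0 ± 1.13 on 5mC against 85.1 ± 11.3 on C. The change of the difference between the strands was 233 ± 17.3 (SE, limma over all pairs of reverse complements, adjusted p 5.3e-09). The same was seen where the C/EBP half-site followed a T: TTATGCAA, with the half-sites C/EBP and PAR, had 180.9 and 190.6 on 5mC against 31.6 and 28.3 on C, whereas its reverse complement TTGCATAA had 27.7 and 34.0 on 5mC against 58.9 and 55.3 on C. The change between these strands was 182 ± 20.5 (SE, limma adjusted p 2.9e-06). The direction at TTGCATAA alone turned after normexp (difference 0.889).

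Across the 32639 pairs of an 8-mer and its reverse complement, the Z-scores of the 2 strands correlated with r of 0.209 and 0.200 on the 5mC arrays against 0.795 and 0.793 on the C arrays. These are correlations across 8-mers that share probes. The limma test of the change in strand difference, added after the values were seen, called 1692 pairs (5.18%), and 660 of these had GCAA on the strand that gained more. It called 1067 pairs without replicate 1 of the C group. Not every fixed pair passed: the TTACGCAA and TTGCGTAA strands differed in their change by 150.3 ± 55.2 (SE, limma adjusted p 0.166) and the TGATGCAA and TTGCATCA strands by 170.0 ± 172 (SE, limma adjusted p 0.841). This fit held all 10 groups and moderated the spread of a pair by a trend over the mean strand difference. The SE of 172 far exceeds those of the single 8-mers in the main fit, 8.68 at TGATGCAA and 0.795 at TTGCATCA. Its source was not tested. Within the 4 arrays, TGATGCAA had 207.1 and 201.6 on 5mC against 42.0 and 47.6 on C, and TTGCATCA had 5.20 and 5.52 on 5mC against 17.0 and 14.6 on C. In the duplex with a CRE and a PAR half-site, the strands TGACGTAA and TTACGTCA both fell (change of the difference 25.1 ± 30.9, SE, limma adjusted p 0.894). Over all pairs, both strands were called higher in 166, both lower in 523, and they were called in opposite directions in 46.

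The lists of 64 8-mers that share a half-site and the base before it show how general these sites were. 8-mers of a list share probes with one another. With C before the C/EBP half-site (NNNCGCAA, where N is any base), 63 of 64 8-mers were called higher on 5mC and 0 lower, against 3.01% and 3.49% of all 8-mers. The median Z-score was 13.4 and 14.9 on the 5mC arrays and 1.33 and 1.32 on the C arrays. The exception, CCCCGCAA, was carried by 4 probes. With T before the half-site (NNNTGCAA), 55 of 64 were higher and 0 lower, with a median difference of 7.25. With A (NNNAGCAA) and with G (NNNGGCAA), 22 and 30 of 64 were higher and 0 lower, with median differences of 1.52 and 1.72. On the 5mC arrays C at the position before the half-site thus stood above T in the median by 6.15 and 6.82 over the 64 flanks, against 0.799 and 0.423 on the C arrays.

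The reverse complements of these lists, in which the C/EBP half-site lay on the unmodified strand, moved far less. In TTGCGNNN 11 of 64 were higher and 3 lower (median difference 0.499), and in TTGCANNN 14 were higher and 2 lower (0.740). Among NNNCGCAA the modified-strand 8-mer exceeded its reverse complement by a median of 12.0 and 12.2 on the 5mC arrays, in 63 of 63 pairs on each, against 0.421 and 0.776 on the C arrays, in 37 and 43 of 63 pairs.

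Most 8-mers of the CRE lists with C before the half-site were lower on 5mC, on both strands. Of NNNCGTCA 58 of 64 were lower and 0 higher, with a median of 0.869 on 5mC against 10.8 on C, and CCCCGTCA had no probe. Of TGACGNNN 46 were lower and 2 higher, with a median of 2.07 on 5mC against 9.23 on C. The largest rise in TGACGNNN was at TGACGCAA, which ends in the C/EBP half-site. Without the CpG the falls in Z-score were smaller: 28 of 64 were lower in NNNTGTCA (median difference -1.80) and 12 in TGACANNN (-1.28). These lists also started lower, with medians of 0.314 on 5mC against 2.34 on C in NNNTGTCA and 0.693 against 2.50 in TGACANNN, which left less room to fall. At the position before GTCA the lead of C over T in the median was 0.597 and 0.541 on the 5mC arrays, against 8.57 and 6.53 on the C arrays.

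The PAR lists were divided. In NNNCGTAA 14 of 64 were lower and 5 higher, but after normexp 0 were lower and 3 higher, and without replicate 1 of the C group 9 were lower. In TTACGNNN 21 were lower and 4 higher, and after normexp 9 were lower and 3 higher. In NNNTGTAA, where the half-site and the base before it hold no C, 3 were higher (4.69%, against 3.01% of all 8-mers) and 0 lower, and in the 27 of its 8-mers with no C in the flank either, 0 were called in either direction.

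**Figure D3:**
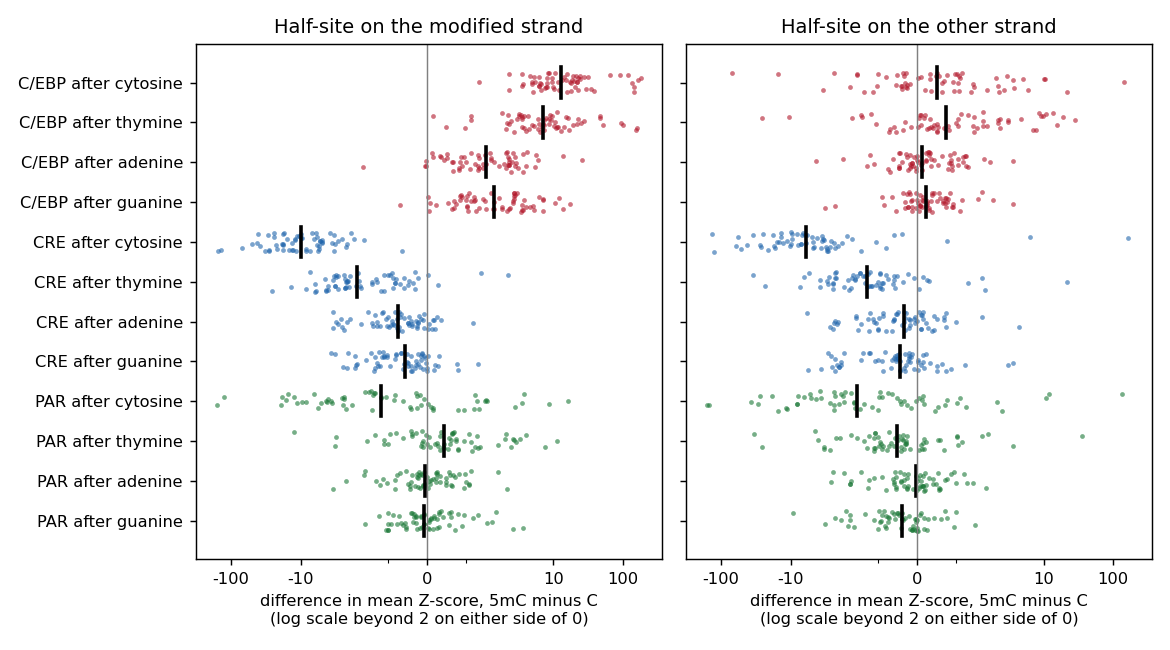
Difference in mean Z-score of CEBPB(V285A), 5mC minus C, of the 8-mers that hold a half-site (colour) after a given base (row), with the half-site on the modified strand (left) and on the other strand (right). Points are 8-mers, up to 64 a row, and black bars are medians, and the axis is logarithmic beyond 2 on either side of 0. The medians for the C/EBP half-site on the modified strand lie to the right of 0 after every base, at 12.9 after cytosine and 7.25 after thymine, and those for the CRE half-site after cytosine lie to the left of 0 on both strands.

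8-mers whose only modified C lay in the C/EBP half-site also had higher values on 5mC. TGATGCAA holds 1 C on the modified strand, at position 6 from the 5′ end, and had a mean of 204 ± 3.89 on 5mC against 44.8 ± 4.00 on C (SD, n = 2 each). TTGTGCAA also holds that C alone, and had 39.8 and 66.2 on 5mC against 2.19 and 1.83 on C. Of the 27 NNNTGCAA 8-mers with no C in the flank, so that this was their only C, 23 were called higher and 0 lower. Where the only C was that of the CpG before a PAR half-site, in the 27 NNNCGTAA 8-mers with no C in the flank, 10 were lower and 1 higher (AAGCGTAA, 4.92 on 5mC against 2.12 on C). In the whole list of NNNCGTAA 0 were lower after normexp and 4 after quantile normalization. Of the 27 fixed 8-mers, the 3 with no C at all (TTATGTAA, TTGTGTAA and TGATGTAA) were not called. TTATGTAA had 35.7 and 34.6 on 5mC against 41.7 and 35.0 on C, ranges that overlapped. Of all 6560 8-mers with no C on the modified strand, 62 were higher (0.945%) and 19 lower (0.290%), shares below the 3.01% and 3.49% of all 8-mers. The largest rise among them was at GTAATATT, with 12.9 and 19.3 on 5mC against 4.42 and 5.11 on C. The probes of such an 8-mer hold C elsewhere.

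The size of the change differed with the bases around the half-site. In NNNCGCAA the median difference was 24.7 with A at position 3, against 16.4 with G, 8.13 with T and 7.49 with C. In NNNCGTCA, which fell, A at position 3 likewise went with the largest median difference (-29.0, against -12.3 with G, -5.76 with T and -3.54 with C). The levels on C had the same order. With A, G, T and C at position 3 the medians on C were 4.47, 1.53, 0.629 and 0.343 in NNNCGCAA, against 30.3, 17.6, 8.62 and 7.83 on 5mC. In NNNCGTCA they were 32.0, 12.8, 7.86 and 3.28 on C, against 2.06, 0.931, 0.812 and 0.0371 on 5mC. The differences thus cannot be told apart from the levels of binding. The change also differed with the base after the half-site, in the same order of pyrimidine over purine for both (lists chosen after the values were seen). The median difference was 39.2 for NNCGCAAT and 34.3 for NNCGCAAC, against 10.9 for NNCGCAAG and 2.27 for NNCGCAAA. It was -19.9 for NNCGTCAT and -21.0 for NNCGTCAC, against -6.69 for NNCGTCAG and -2.52 for NNCGTCAA. A pyrimidine after the half-site thus went with the larger change, and the levels behind it were 41.1 on 5mC against 3.33 on C for NNCGCAAT and 1.07 on 5mC against 20.7 on C for NNCGTCAT (medians of the group means).

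At position 1, 8-mers with C in place of T had low values on the C arrays and high values on the 5mC arrays when the modified strand carried the C/EBP half-site. T at position 1 is the base that pairs with the last A of the half-site on the other strand. CTACGCAA had 180.6 and 197.8 on 5mC against 7.40 and 9.38 on C, where TTACGCAA had the values given above. Its difference of 181 (limma adjusted p 1.1e-08) was the largest in NNNCGCAA, and its limma adjusted p was 0.257 with the 6 CEBPB(V285A) arrays and 0.0543 with the 4 arrays alone. CGACGCAA had 165.6 and 134.3 on 5mC against 4.56 and 4.42 on C, and CTGCGCAA, the C/EBP palindrome with this exchange, had 90.3 and 98.6 on 5mC against 2.56 and 2.00 on C. Over the 5 such sites with GCAA, after C or T, the 8-mers with C at position 1 lay between 77.6 and 197.8 on 5mC and between 1.39 and 9.38 on C, and those with T there between 180.9 and 255.8 on 5mC and between 28.3 and 127.6 on C. The version with T was the higher on every array. Its lead at CTACGCAA was 75.2 and 53.3 on 5mC against 120.2 and 99.8 on C, whereas at the other 4 sites it was larger on 5mC, for example 109.9 and 116.7 on 5mC against 63.1 and 63.3 on C at CTGCGCAA. These substitutions were chosen after the values were seen, and their levels and leads are descriptions with no test.

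At position 2 the same exchange of C for T gave lower values on 5mC than at position 1. TCACGCAA had 28.0 and 30.0 on 5mC against 9.60 and 11.9 on C, and TCGCGCAA had 21.6 and 15.4 on 5mC against 1.81 and 0.912 on C. Over the 3 such sites with GCAA the values lay between 15.4 and 30.0 on 5mC and between 0.912 and 11.9 on C, with no overlap. With a PAR half-site on the modified strand, CGACGTAA was called higher (24.9 and 25.3 on 5mC against 8.06 and 9.88 on C, limma adjusted p 7.3e-07) although TGACGTAA was lower. In NNNCGTAA 4 of the 16 8-mers with C at position 1 were higher and 0 lower, and of the 16 with T at that position 0 were higher and 7 lower. With a CRE half-site the 2 8-mers with C at position 1 lay between 5.61 and 6.94 on 5mC and between 35.0 and 58.5 on C. At position 6, where C makes the C/EBP half-site and T the PAR half-site, TTACGCAA lay above TTACGTAA on both 5mC arrays and below it on both C arrays.

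**Figure D4:**
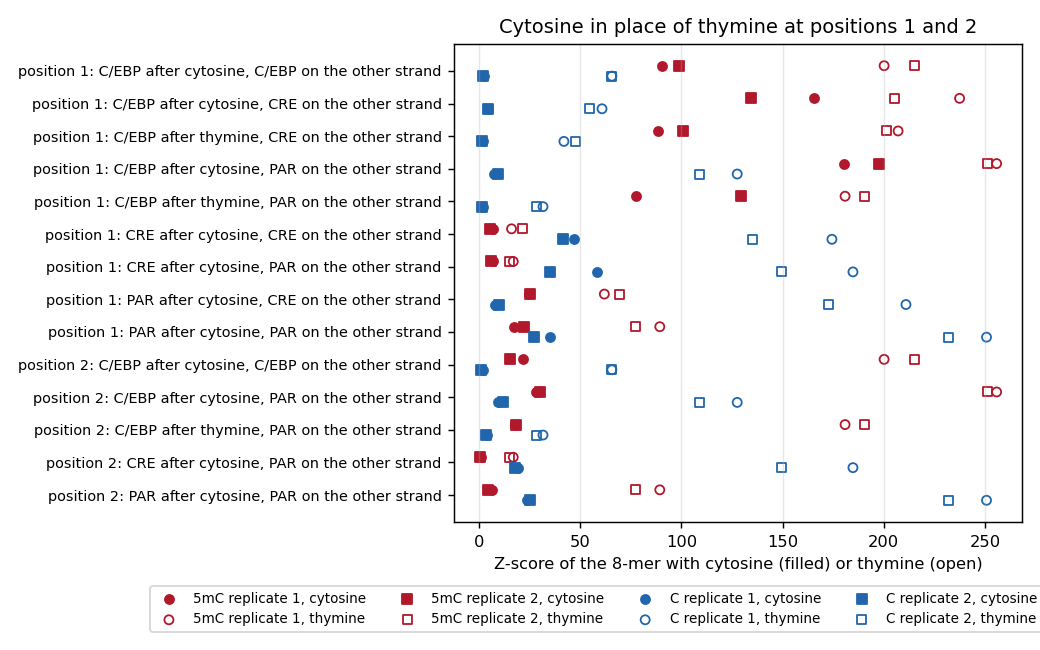
Z-score of CEBPB(V285A) (horizontal axis) at 8-mers with C (filled points) or T (open points) at position 1 or 2, on 5mC (upper points of a row) and on C (lower points). Each row is a site named by the half-site on the modified strand, the base before it and the half-site on the other strand, and points are single arrays. At position 1 of the 5 sites with the C/EBP half-site the 8-mers with C lie between 77.6 and 197.8 on the 5mC arrays and between 1.39 and 9.38 on the C arrays, and at position 2 of 3 such sites at or below 30.0 on both.

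The largest rises over all 8-mers, leaving out any that overlapped one already named, were each part of this family. ACGCAATC had 193.6 and 240.1 on 5mC against 19.0 and 15.4 on C, the largest difference of all 8-mers (199.7, limma adjusted p 3.1e-08). The fit pooled the spread over all 10 groups, with an SE of 11.4 here. The SD of 2 arrays was 32.9 on 5mC and 2.6 on C, against 2.78 and 0.905 in CREB1(A297V). The p-values thus drew on the spread of other groups as well. Of the 55 named 8-mers called, 25 stayed called with the 6 CEBPB(V285A) arrays and 19 with the 4 arrays alone. CGCAATAC had 135.3 and 168.0 on 5mC against 9.41 and 7.74 on C. CAACGCAA had 121.0 and 120.4 on 5mC against 5.34 and 3.56 on C, and ranked 18 on 5mC and 1725 on C. ACGCAACT, ATGCAATC, GCAATCAT, CCACGCAA and GTCGCAAT followed, with differences of 105 to 62.6. All 8 contain GCAA, and at all 8 the 2 arrays of a group lay closer to each other than to those of the other group. The largest falls were at ACGTCACA (17.1 and 9.23 on 5mC against 133.4 and 93.8 on C), GATGACGT (10.5 and 8.66 on 5mC against 135.5 and 67.7 on C) and GCTGACGT (9.08 and 5.61 on 5mC against 83.0 and 91.6 on C). TGACGTGG, GCGTCACG, TGACGTTA, GCATGACG and TGGTGACG followed, with differences of -58.1 to -33.3. All 8 hold CGTCA or TGACG. The C arrays of GATGACGT differed by more than the lower of them lay above the 5mC arrays, and its difference was -58.1 without replicate 1 of the C group, against -92.0 with all arrays.

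The probe intensities, which are the deposited measurements behind the Z-scores, also differed at single spots. The probes below had the largest rises and the largest falls in log2 intensity centred on each array's median, and are given on the modified strand with capitals for the half-sites with their base before or after.
Rise 1: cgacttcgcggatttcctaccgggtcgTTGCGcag
Rise 2: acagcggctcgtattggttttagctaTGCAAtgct
Rise 3: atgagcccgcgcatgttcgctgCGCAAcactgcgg
Fall 1: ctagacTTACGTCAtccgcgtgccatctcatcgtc
Fall 2: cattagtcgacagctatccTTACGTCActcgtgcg
Fall 3: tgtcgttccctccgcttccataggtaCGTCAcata
Rise 1 had intensities of 34407 and 44296 on 5mC against 902 and 669 on C. Rise 2 had 42956 and 33554 on 5mC against 842.5 and 682 on C. Rise 3 had 57944 and 55715 on 5mC against 1322.5 and 1053 on C. After centring these were 37.3 to 38.9 times higher on 5mC. Rises 2 and 3 hold GCAA on the modified strand, while Rise 1 holds TTGC and no GCAA there, so that its exact C/EBP half-site lay on the strand without the modification. At the same place the modified strand of Rise 1 reads CGCAG, which differs from CGCAA at its last base. Fall 1 had 705 and 1002 on 5mC against 30194 and 28225 on C, and Fall 2 had 1376 and 2755 on 5mC against 40480 and 41101 on C. The second 5mC value of Fall 2 lay at its local background of 2743.5. Fall 3 had 1018 and 872 on 5mC against 26963 and 12247 on C.

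Of the 200 brightest probes of an array, 109 and 107 held CGCAA on the 5mC arrays against 25 and 23 on the C arrays, where 2.96% of all probes hold it. TGCAA stood in 49 and 45 on 5mC against 8 and 12 on C. CGTCA stood in 7 and 6 on 5mC against 68 and 59 on C. The 5mC arrays shared 172 of these probes with each other and the C arrays 151, while a 5mC and a C array shared 56 to 62. Probes of a site moved together: the log2 intensity was higher on 5mC at 17 of 17 probes with TGACGCAA, 16 of 18 with TTACGCAA and 16 of 17 with TTGCGCAA, and at 0 of 19 with TGACGTCA, 0 of 16 with TTACGTCA and 0 of 18 with TTACGTAA. Spots near the scanner's upper limit, at 65000 or above, numbered 19 and 11 on the 5mC arrays and 2 and 0 on the C arrays. On 5mC they included 4 and 3 of the 18 probes with TTACGCAA, 4 and 1 of the 17 with TGACGCAA and 1 and 3 of the 17 with TTGCGCAA. The median intensity of the probes of a site was below that limit, at 37845 and 33788 for TTACGCAA, 34282 and 31664 for TGACGCAA and 31217 and 30204 for TTGCGCAA. Whether the limit affected the Z-scores was not tested.

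The effect of 5mC was set against that in CREB1(A297V), the reciprocal mutant of the other parent protein. The effects differed at 2287 8-mers (3.49%; 1036 where the difference 5mC minus C was more positive in CEBPB(V285A) and 1251 where it was more negative). Of the 27 fixed 8-mers, 19 were among them. TGACGCAA had means of 221 ± 22.9 on 5mC against 57.7 ± 4.35 on C in CEBPB(V285A), and 7.91 ± 1.74 on 5mC against 6.95 ± 1.45 on C in CREB1(A297V) (SD, n = 2 each; difference of the effects 163 ± 12.9, SE, limma adjusted p 2.6e-06). TTACGTAA had 83.3 ± 8.59 on 5mC against 241 ± 13.2 on C in CEBPB(V285A), and 49.1 ± 4.11 on 5mC against 55.1 ± 10.8 on C in CREB1(A297V) (-152 ± 11.4, SE, limma adjusted p 1.7e-06, a direction that turned after normexp, with 0.663). Effects that differed could share a direction, as at CRE sites where both mutants fell. CREB1(A297V) had 5.93 ± 4.60 on 5mC against 23.1 ± 0.249 on C at TGACGTCA, and 5.25 ± 3.23 against 26.7 ± 3.20 at TTACGTCA (SD, n = 2 each). No scaling of one array to another was stated for the Z-scores, so no common scale is known for the sizes of the effects in the 2 proteins. On the asinh of the Z-scores, which compresses large values, 128 8-mers were called in place of 2287. In wild-type CREB1, with a single 5mC array and hence no spread on 5mC, CTACGCAA had 104 on 5mC against 4.43 ± 0.335 on C, and TGACGTCA had 22.4 on 5mC against 195 ± 24.9 on C. The CEBPB(V285A) and CREB1 comparisons share no arrays.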

How the data were processed

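Per the labels, CREB1, CEBPB(V285A) and CREB1(A297V) DNA-binding domains were expressed in vitro and bound to 44K Agilent arrays of the HK design, double-stranded with C, 5mC or 5hmC. The deposited matrix held the authors' score per 8-mer and array, called a Z-score, and how the authors made it from the spots is not given in the sources used here. The authors' intensities of 40330 spots per array, a median signal and a median local background per the file headers, were deposited with no normalization stated. The fit also held the arrays on 5hmC, including those of wild-type CEBPB.

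The names in the matrix were complemented base by base. Of 4 spellings, this one gave the highest correlation of Z-score and median probe intensity in the 4 arrays compared (r of 0.976 and 0.983 on 5mC, 0.986 and 0.984 on C). An 8-mer had a median of 17 probes with 35 variable bases. The 409 8-mers with no probe had a Z-score of 0 and stayed in the test. Counting intervals do not apply to array intensities, and the number of arrays limits the precision.

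Differences were tested with limma 3.58.1 (R 4.3.3). A coefficient was fitted for each of 10 groups to the matrix of Z-scores of all 21 arrays (11 residual degrees of freedom), with a mean-variance trend, two-sided p-values adjusted by Benjamini-Hochberg over all 65535 8-mers and a threshold of 0.05. The spread of an 8-mer was thus estimated over 10 groups. The fit was tested on simulated data. The comparison, the half-site lists and the named 8-mers were chosen with earlier results of these data known. Named were 27 fixed 8-mers, the 8 largest called rises and falls (skipping those that overlap an earlier one by 7 or more bases), the 5 highest means of each group, and the largest and smallest difference of each list. Other 8-mers named were chosen after their values were seen. Alternatives were the 4 or the 6 CEBPB(V285A) arrays alone, no trend, a replicate block, asinh, quantile normalization, log2 median probe intensity, Z-scores recomputed from median and MAD, normexp with an offset of 50, a minimum of 8 probes, and each array left out. The recomputed Z-scores came from unlogged intensities. The normexp alternative took log2 of the corrected intensities and then made Z-scores from median and MAD, so background and scale changed together. Replicate numbers were not shown to pair the arrays: deviations of same-numbered arrays from their group means correlated with Pearson r of 0.0287 and Spearman rho of 0.127 across 8-mers.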

Additional observations from a re-analysis of the deposited data

Results flagged for a closer look

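The effect of 5mC differed between CEBPB(V285A) and CREB1(A297V) at 2287 of 65535 8-mers by the interaction test in limma, and at 19 of the 27 fixed 8-mers. Values below are the effect (Z-score on 5mC minus C) in CEBPB(V285A) less that in CREB1(A297V), so effects of the same direction but unlike size can also differ. No common scale is known for the sizes of the effects in the 2 mutants. Where the modified strand carried GCAA, the effect was more positive in CEBPB(V285A): by 162.6 at TGACGCAA, 159.0 at TGATGCAA, 154.7 at TTATGCAA, 139.8 at TTGCGCAA, 133.8 at TTACGCAA and 49.6 at TTGTGCAA. It was also more positive at the 3 8-mers that end in ACAA, by 37.0 at TTACACAA, 27.6 at TTGCACAA and 21.4 at TGACACAA. It was more negative at the other 10, with -152.1 at TTACGTAA, -129.8 at TTACGTCA, -118.7 at TGACGTCA, -65.8 at TTGCGTCA, -24.9 at TTGCATAA, -23.3 at TGATGTCA, -22.4 at TTACATCA, -12.7 at TTATGTCA, -10.4 at TTGCATCA and -4.37 at TTGTGTCA. Of these 19 calls, 6 were also made after normexp, all of them positive, 7 after quantile normalization, 9 with the 8 arrays of the 2 mutants on 5mC and C, and 0 on asinh values (limma; 6 of the 19 had an unadjusted p under 0.05 there). After normexp the limma adjusted p of TTACGCAA was 0.067, that of TTGCGCAA 0.108 and that of TTGCACAA 0.19. The call of TTACGCAA was lost without any of 7 of the 8 arrays and that of TTGCATAA without any of 6. Groups of 2 arrays are too small for a test of single outlying arrays.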

How the results depend on the processing

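Counts are 8-mers called between 5mC and C, 4259 with all arrays (1972 higher and 2287 lower). They were 2229 (992 and 1237) with the 6 CEBPB(V285A) arrays, 1909 (859 and 1050) with the 4 arrays, 2306 (1125 and 1181) on asinh values, 2686 (1356 lower) after quantile normalization, 2523 (933 lower) after normexp and 10905 (5286 and 5619) on log2 median intensity. Leaving out 1 array gave 2557 to 3219 (1240 to 1666 higher and 1317 to 1795 lower). With a replicate block 5068 were called, for numbers not shown to pair the arrays; the block changed no call among the 27 fixed 8-mers, and in the interaction it ended that of TTGCATAA. No direction among the named and called 8-mers turned except at TTACGTAA (0.931) and TTGCATAA (0.889) after normexp, and in the interaction after normexp at TTACGTAA (0.663), TTACGTCA (0.0199) and TTGCATAA (1.75). Of the 22 fixed 8-mers called, 22 stayed called without the trend, on log2 intensity, on recomputed Z-scores and with at least 8 probes, 15 after quantile normalization, 12 after normexp, 9 on asinh values, 10 with 6 arrays and 8 with 4.

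Of 64 8-mers, the calls in the lists were 41 (NNNCGCAA), 28 (NNNTGCAA), 29 (NNNCGTCA), 18 (TGACGNNN), 5 (NNNCGTAA) and 13 (TTACGNNN) with the 4 arrays. With 6 arrays they were 31 for NNNTGCAA, 28 for TGACGNNN and 5 for NNNCGTAA, on asinh values 35, 24 and 6, after normexp 24 for TGACGNNN, 0 for NNNCGTAA and 9 for TTACGNNN, and for NNNCGTAA 4 after quantile normalization and 24 on log2 intensity. Leaving out 1 array gave 9 to 14 for NNNCGTAA and 1067 to 1304 strand pairs, against 1692. The interaction count, 2287, was 128 on asinh values, 1102 after quantile normalization, 832 after normexp, 4279 on log2 intensity and 1214 with the 8 arrays of the 2 mutants on 5mC and C. The causes were not tested. Fits with fewer arrays also had fewer degrees of freedom, and the part this played was not tested either.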

Other observations

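Some 8-mers outside the C/EBP, CRE and PAR half-sites also moved. Of the 57939 8-mers with none of the 3 half-sites on either strand, 929 (1.60%) were higher on 5mC and 1209 (2.09%) lower, against 3.01% and 3.49% of all 8-mers. The largest rise among them was at ATTATGCA, with Z-scores of 38.4 and 40.1 on 5mC against 12.3 and 10.4 on C, and this 8-mer is TTATGCAA shifted by a base. The largest fall was at TACGTAGG, with 1.83 and 0.744 on 5mC against 35.2 and 26.7 on C, which holds TACGTA, the centre of the PAR palindrome. The lists in this part were chosen after the values were seen.

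8-mers that end in ACAA, a half-site that differs from GCAA at its first base, also rose in part. Of NNNCACAA, 19 of 64 (29.7%) were higher on 5mC and 1 lower, with a median of 1.75 on 5mC against 0.661 on C. Of NNNAACAA 9 of 64 (14.1%) were higher and 1 lower, and of NNNGACAA 8 (12.5%) were higher and 2 lower. Of NNNTACAA 5 (7.81%) were higher and 0 lower. Of all 8-mers 3.01% were higher and 3.49% lower. TTACACAA had 43.2 and 52.2 on 5mC against 12.9 and 11.7 on C, TTGCACAA 30.7 and 39.1 against 6.94 and 6.60, and TGACACAA 26.1 and 31.3 against 7.99 and 6.65. All 3 hold C at positions 4 and 6, and their reverse complements differed among themselves: TTGTGCAA, which ends in GCAA, rose, TTGTGTCA fell to 0.708 and 2.22 on 5mC, against 5.82 and 5.63 on C, and TTGTGTAA was not called.

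Of 1024 8-mers that contain CCCC, which are the 1024 with fewer than 8 probes, 10 were called higher (0.977%) and 29 lower (2.83%). Of all 8-mers 3.01% were higher and 3.49% lower. The 1024 include the 409 8-mers with no probe, which had a Z-score of 0 and of which 0 were called. The shares among those with a probe are therefore larger than the ones given. Of these calls, 10 higher and 11 lower were among the 286 8-mers carried by 1 probe (3.50% and 3.85%, near the shares of all 8-mers). The Z-score of such an 8-mer is that of a single spot on each array.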
